A study of Homo sapiens with 24 samples.

Results

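Transcript levels of 10 genes of nucleotide excision repair (NER) were examined in 2 isogenic ovarian cancer lines, A2780 (platinum-sensitive) and A2780cis (platinum-resistant), untreated or exposed to 5-FdU-ECyd. The genes, ERCC1, ERCC2, ERCC3, ERCC4, ERCC5, ERCC6, XPA, XPC, DDB1 and DDB2, encode proteins of damage recognition and incision on the repair route for platinum adducts. They were taken by gene name and found by their Ensembl identifiers, and they are 10 of the 63299 genes of the deposited count table. All 10 passed the filter on low counts, which left 20240 genes for testing, and the lowest count of any of them in a library was 106. The 24 libraries of whole transcriptome sequencing formed 8 groups of 3. For each line, cells harvested 6 h or 12 h after a change of medium had received either growth medium alone (untreated) or medium with 1 μM 5-FdU-ECyd (treated), a duplex-prodrug that joins the antimetabolites 5-FdU and ECyd. A2780cis is isogenic to A2780 and was grown with 1 μM cisplatin for a passage at intervals of a few passages to keep its resistance. How long before harvest the last such passage lay was not given in the sources used here. Each platinum phenotype was represented by 1 line, so resistance and any other difference between the lines cannot be told apart. The triplicates were called biological replicates by the study, but whether they came from separate passages was not found, and p-values therefore measure the spread between these libraries, which may be technical.

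NER removes bulky, helix-distorting DNA lesions, among them ultraviolet photoproducts and the intrastrand crosslinks that cisplatin leaves. Lesions are found either anywhere in the genome, by XPC and the DDB1-DDB2 complex, or at a stalled RNA polymerase II, with ERCC6 (CSB) as an early factor. Both routes then share the TFIIH complex that opens the helix, XPA that verifies the lesion, and the nucleases that cut the damaged strand on either side, after which the gap is filled and ligated. DDB2 and XPC are known transcriptional targets of p53 in human cells, and loss of the excision step makes cells sensitive to cisplatin.

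Total counts per library ranged from 11077368 to 21901406. Levels are given as CPM, the counts per 1000000 reads after scaling by the trimmed mean of M-values, and differences as log2 fold changes (log2 FC) ± standard error (SE). Of 8 ovarian carcinoma and epithelial markers, 5 (PAX8, WT1, MUC16, CDH1 and KRT7) were at or near 0 in every library, with a summed level of at most 0.210 CPM, while EPCAM reached 1.96 CPM, KRT8 lay between 0.574 and 6.80 CPM and KRT18 between 0.718 and 28.4 CPM. The mesenchymal marker VIM lay between 788 and 2769 CPM. PTPRC, PECAM1 and ALB, markers of cells that the cultures should lack, summed to at most 0.273 CPM. The libraries are of bulk cells, in which fewer cells of a kind and less RNA per cell cannot be told apart.

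The global genome recognition genes were DDB2 (ENSG00000134574.11, chromosome 11, 47214465 to 47239217, forward strand), DDB1 (ENSG00000167986.13, chromosome 11, 61299451 to 61342596, reverse strand) and XPC (ENSG00000154767.14, chromosome 3, 14145147 to 14178621, reverse strand), all by GENCODE release 44 on GRCh38. ERCC6, the transcription-coupled factor (ENSG00000225830.11), spans 49454168 to 49539538 of chromosome 10 on the reverse strand. The helicases of TFIIH were ERCC2 (XPD, ENSG00000104884.14, chromosome 19, 45349837 to 45370918, reverse strand) and ERCC3 (XPB, ENSG00000163161.12, chromosome 2, 127257290 to 127294166, reverse strand). XPA, the verification factor (ENSG00000136936.10), lies at 97674909 to 97697340 of chromosome 9 on the reverse strand. The nuclease genes were ERCC1 (ENSG00000012061.15, chromosome 19, 45407334 to 45478828, reverse strand), whose protein pairs with that of ERCC4 (XPF, ENSG00000175595.14, chromosome 16, 13920138 to 13952348, forward strand) for the 5′ cut, and ERCC5 (XPG, ENSG00000134899.18, chromosome 13, 102845831 to 102875995, forward strand), whose protein makes the 3′ cut.

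DDB2 had the largest treatment responses of the 10 genes in both lines, and the promoter sequence shown is the 1 among their promoters that held a p53 element. RefSeq promoter windows of 300 bases (250 before and 50 after a transcription start, GRCh38.p14) were available as 14 windows for all 10 genes. The p53 consensus decamer was searched on both strands, as were pairs of decamers separated by at most 13 bases. Single decamers occurred in 6.63% of all 35116 windows and such pairs in 0.0285% (10 windows). Of the 14 windows, 1 of the 2 of DDB2 held a pair, and the others held no decamer. The stretch from the start of that window to the end of the pair (chr11:47214724-47214999, forward strand) is shown with both decamers in capitals. They are separated by 1 base and begin 5 bases past the start base:
DDB2: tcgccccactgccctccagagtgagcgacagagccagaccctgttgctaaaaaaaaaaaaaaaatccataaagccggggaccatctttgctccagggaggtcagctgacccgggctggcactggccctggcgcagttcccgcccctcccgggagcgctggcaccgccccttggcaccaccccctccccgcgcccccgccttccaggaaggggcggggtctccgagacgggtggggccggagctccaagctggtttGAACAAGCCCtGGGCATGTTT
A match of letters is a description and not evidence of binding. The ETS core CCGGAAGT, searched on both strands, was found in 4.14% of all windows and, among the 10 genes, in the window of ERCC3 and in 1 of the 3 windows of ERCC1.

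Per kilobase of exon, the genes covered a wide range in untreated cells. At 12 h in A2780, DDB1 was highest with 27.8 ± 1.28 CPM per kb (SD, n = 3). It was followed by ERCC1 with 14.5 ± 0.811 and by ERCC3 with 13.03 ± 0.420 and XPC with 12.4 ± 1.01, whose libraries overlapped each other. DDB2 with 8.64 ± 0.236 and ERCC2 with 8.14 ± 0.380 CPM per kb also overlapped. XPA, ERCC5, ERCC4 and ERCC6 followed without overlap between neighbours, down to 0.564 ± 0.0401 CPM per kb for ERCC6. In A2780cis the order began with DDB1 at 26.7 ± 0.799 CPM per kb, but ERCC2 came next with 17.8 ± 2.35, overlapping ERCC1 with 17.1 ± 0.849. ERCC6 was again lowest, with 0.337 ± 0.0195 CPM per kb. The plot of CPM by library shows each gene in all 8 groups.

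**Figure D1:**
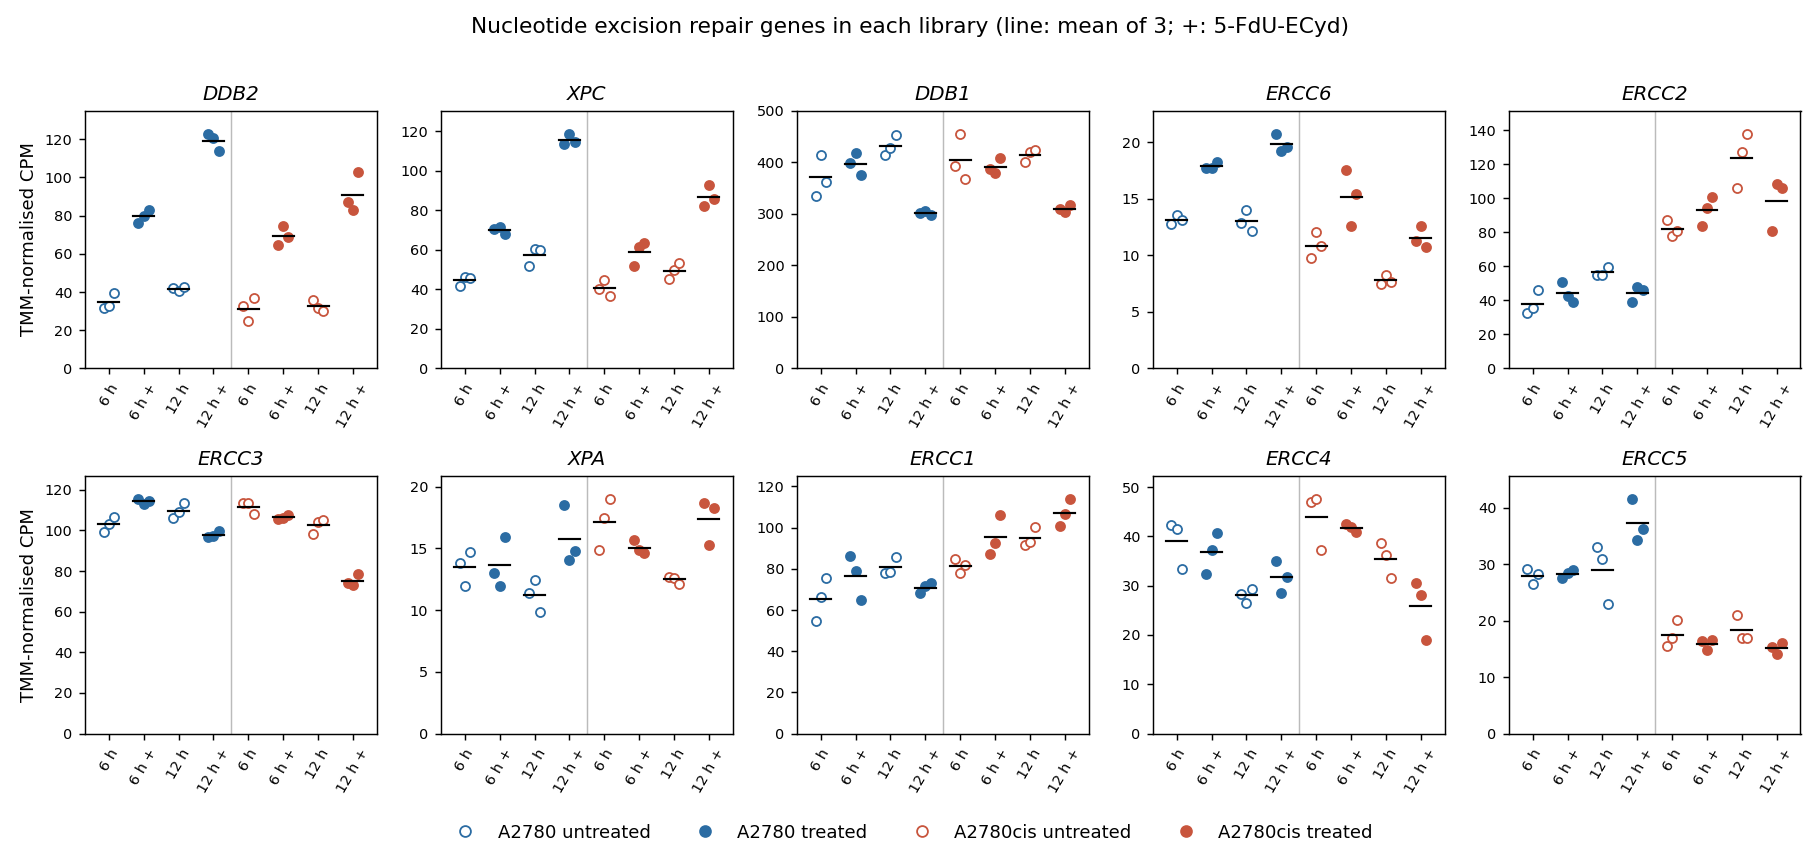
TMM-normalised CPM (linear axis from 0) of the 10 genes in each of the 24 libraries; open symbols are untreated and filled symbols treated cells (+), blue A2780 and red A2780cis, and black lines are means of 3. Treated cells sit above untreated cells for DDB2, XPC and ERCC6 in every line and time, and A2780cis cells sit above A2780 cells for ERCC2.

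The first question was how the untreated lines differ. ERCC2, a helicase of TFIIH, was more than 2-fold higher in platinum-resistant cells at both times, and ERCC5, the nuclease of the 3′ cut, was lower at both. ERCC6, DDB2 and ERCC4 passed at 12 h and ERCC1 and XPA at 6 h, and whether these differences changed between the times was not tested. At 6 h, 4 of the 10 genes passed the threshold of 0.05 on the adjusted p-value (edgeR's quasi-likelihood test, Benjamini-Hochberg adjustment over all genes), where 47.9% of all genes tested did. Of these, 3 were higher and 1 was lower in A2780cis, against 25.0% of all genes higher and 22.9% lower. At 12 h, 5 of 10 passed, 2 higher and 3 lower, against 52.9% of all genes, 25.4% higher and 27.5% lower. The shares of the 10 genes were thus near those of all genes, and the median log2 FC of the 10 was 0.12 at 6 h and -0.08 at 12 h, against 0.01 and -0.01 over all genes tested. The count at 6 h was 2 without A2780 untreated 6 h replicate 1, and 2 when the compared libraries were fitted alone. The split of calls also moved with the scaling, to 2 higher and 2 lower at 6 h with the size factors of DESeq2, to 1 and 2 with library size alone, and to 1 and 3 at 12 h with library size alone.

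ERCC2 measured 32.7, 35.5 and 46.2 CPM in untreated A2780 and 87.3, 77.6 and 80.5 CPM in untreated A2780cis at 6 h. At 12 h it measured 54.7, 55.2 and 59.5 CPM in A2780 and 106, 127 and 138 CPM in A2780cis. Every A2780cis library was above every A2780 library at its time. The log2 FC was 1.105 ± 0.14 at 6 h (2.15-fold, adjusted p = 1.32e-07) and 1.13 ± 0.13 at 12 h (2.19-fold, adjusted p = 3.84e-08). ERCC3, the other helicase of the same complex, had log2 FC of 0.12 ± 0.07 (adjusted p = 0.163) and -0.10 ± 0.07 (adjusted p = 0.223) and did not pass at either time.

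ERCC5 measured 29.1, 26.4 and 28.3 CPM in untreated A2780 and 15.4, 16.8 and 20.1 CPM in untreated A2780cis at 6 h. The values at 12 h were 33.1, 30.9 and 23.0 CPM in A2780 and 21.0, 16.9 and 17.0 CPM in A2780cis. The lines did not overlap at either time, although A2780 replicate 3 at 12 h came near the highest A2780cis library. The A2780cis level was 0.627 of the A2780 level at 6 h (log2 FC -0.67 ± 0.13, adjusted p = 1.12e-04) and 0.633 at 12 h (log2 FC -0.66 ± 0.12, adjusted p = 7.35e-05). ERCC5 shares 33.0% of its exon length with the readthrough gene BIVM-ERCC5 on the same strand, so reads can count for both. With the 2 counts summed, an alternative chosen after seeing the data, the log2 FC was -0.59 and -0.68 and passed. Shared reads enter this sum 2 times, and BIVM-ERCC5 alone was also lower (log2 FC -0.52 and -0.69). The sum is therefore no check on read sharing.

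The other nuclease genes differed less between the lines. ERCC1 was higher in A2780cis at 6 h, where A2780 libraries measured 54.8, 66.4 and 75.5 CPM and A2780cis libraries 84.7, 77.8 and 82.0 CPM without overlap (log2 FC 0.32 ± 0.11, adjusted p = 0.0175). This call was lost with library size alone, with the compared libraries alone, without A2780 untreated 6 h replicate 1 and without A2780cis untreated 6 h replicate 1. At 12 h the log2 FC of ERCC1 was 0.24 ± 0.10 (adjusted p = 0.0611). ERCC4 passed at 12 h (log2 FC 0.34 ± 0.14, adjusted p = 0.0452), where A2780 measured 28.4, 26.6 and 29.2 CPM and A2780cis 38.6, 36.2 and 31.5 CPM. The call for ERCC4 was lost without any 1 of 5 of the 6 libraries, with the Wald test of DESeq2 and with library size alone, with adjusted p of 0.0502 and 0.0516 in the last 2. At 6 h ERCC4 did not pass (log2 FC 0.17 ± 0.14, adjusted p = 0.359).

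ERCC6, the transcription-coupled factor, was lower in A2780cis at 12 h. The A2780 libraries measured 12.9, 14.01 and 12.2 CPM and the A2780cis libraries 7.46, 8.31 and 7.61 CPM, a clear separation. The log2 FC was -0.74 ± 0.12 (0.599 of the A2780 level, adjusted p = 4.97e-06). At 6 h it was -0.27 ± 0.12 and missed the threshold (adjusted p = 0.0642). XPA, the verification factor, passed at 6 h, with 13.8, 11.9 and 14.7 CPM in A2780 and 14.9, 17.4 and 19.0 CPM in A2780cis (log2 FC 0.34 ± 0.14, adjusted p = 0.0394), against 0.15 ± 0.13 at 12 h (adjusted p = 0.341). The XPA call was lost in 9 alternatives, among them the Wald test of DESeq2 (adjusted p = 0.0995), the unfiltered table and the removal of any 1 of 4 of the 6 libraries.

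Among the global genome recognition genes, DDB2 was lower in A2780cis at 12 h, with 36.0, 31.5 and 30.3 CPM against 42.2, 40.5 and 42.7 CPM in A2780 (log2 FC -0.36 ± 0.11, adjusted p = 0.0101). This call was lost without A2780cis untreated 12 h replicate 3 (adjusted p = 0.0543). At 6 h the lines overlapped (log2 FC -0.13 ± 0.12, adjusted p = 0.382). XPC did not pass at 6 h (log2 FC -0.14 ± 0.10, adjusted p = 0.262) or at 12 h (log2 FC -0.22 ± 0.09, adjusted p = 0.0534). At 12 h it did pass with the compared libraries alone (adjusted p = 0.0403), without A2780 untreated 12 h replicate 1 (adjusted p = 0.0317) and without A2780cis untreated 12 h replicate 3 (adjusted p = 0.0379). DDB1 did not pass either, with log2 FC of 0.13 ± 0.09 and -0.06 ± 0.09, and the 95% interval of its difference ran from -0.05 to 0.31 at 6 h and from -0.24 to 0.12 at 12 h. The lines also differed in the summed level of the 8 epithelial markers, which was 2.09 to 6.52 CPM in A2780 and 25.1 to 35.8 CPM in A2780cis, almost all of it KRT18 and KRT8, and its part in these differences was not tested.

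**Figure D2:**
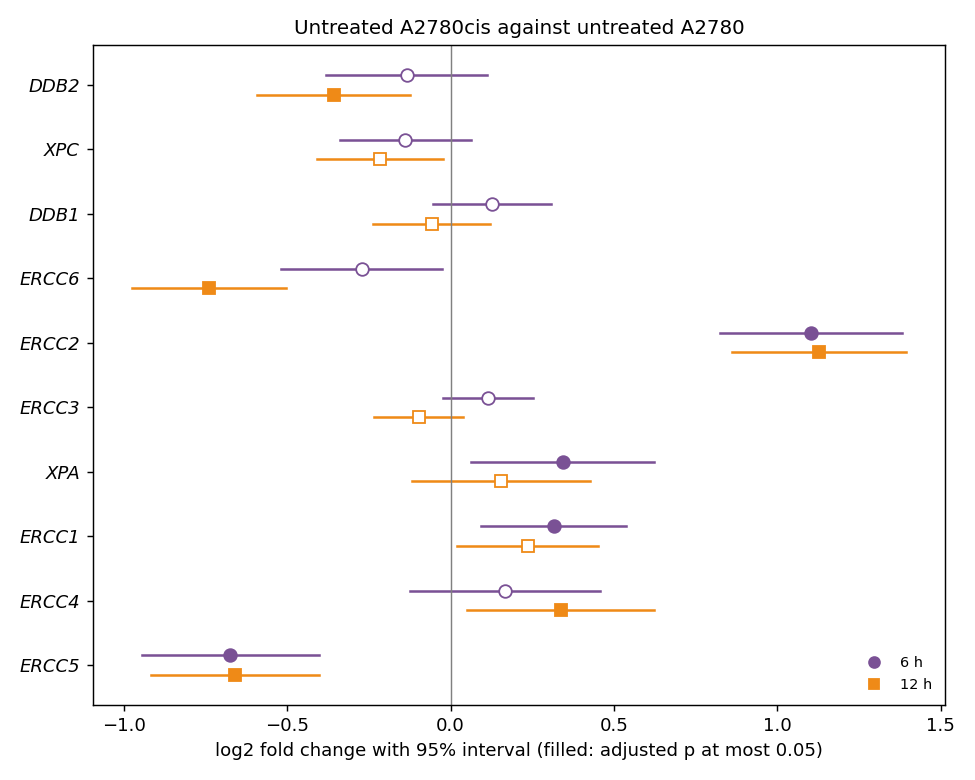
Log2 FC of untreated A2780cis against untreated A2780 cells at 6 h (circles) and 12 h (squares) for the 10 genes, with 95% intervals (3 libraries per group); filled symbols have an adjusted p of at most 0.05. ERCC2 stands at 1.105 and 1.13, and ERCC5 at -0.67 and -0.66.

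Some of the genes also moved between 6 h and 12 h without treatment, which sets the baseline for the treatment comparisons. ERCC2 rose in both lines, by a log2 FC of 0.57 ± 0.13 in A2780 (adjusted p = 0.00414) and 0.59 ± 0.13 in A2780cis (adjusted p = 9.71e-04). XPC rose by 0.37 ± 0.10 in A2780 (adjusted p = 0.00738) and by 0.29 ± 0.10 in A2780cis (adjusted p = 0.0188). In A2780, ERCC1 rose (log2 FC 0.30 ± 0.11) and ERCC4 fell (log2 FC -0.48 ± 0.14), which made 4 of 10 genes called against 26.9% of all genes. In A2780cis, ERCC6 fell (log2 FC -0.48 ± 0.12) and so did XPA (log2 FC -0.45 ± 0.13), again 4 of 10 genes, against 39.9% of all genes. With library size alone, ERCC6 and XPA lost their calls in A2780cis (adjusted p = 0.0636 and 0.0948), ERCC1 passed, and the split there was 3 higher and 0 lower. Over all genes in A2780cis, that scaling moved the split from 18.0% higher and 21.9% lower to 23.2% higher and 7.90% lower. The count in A2780 was 1 without A2780 untreated 6 h replicate 1 and 2 without A2780 untreated 12 h replicate 2.

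The response to 5-FdU-ECyd was then followed over the 8 groups, with the same untreated libraries as in the comparisons of lines and times. After 6 h, the same 3 genes were up-regulated in both lines, DDB2, XPC and ERCC6, and none of the 10 was down-regulated. All 3 encode recognition factors, but so does DDB1, which did not pass in either line. In A2780 these 3 of 10 genes stood against 29.4% of all genes called, 16.0% higher and 13.4% lower. In A2780cis they stood against 30.7% of all genes, 14.4% higher and 16.3% lower. In A2780 the median log2 FC of the 10 genes was 0.18, where that of all genes tested was 0.04, and in A2780cis the medians were 0.07 and 0.00. In A2780 the count was 5 without A2780 untreated 6 h replicate 3, when ERCC1 and ERCC2 also passed.

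After 12 h, 8 of the 10 genes passed in each line. In A2780, 5 were higher (DDB2, XPC, ERCC6, XPA and ERCC5) and 3 lower (DDB1, ERCC2 and ERCC3, the last of which turned to a log2 FC of 0.06 with library size alone), against 54.8% of all genes called, 28.6% higher and 26.1% lower. In A2780cis, 4 were higher (DDB2, XPC, ERCC6 and XPA) and 4 lower (DDB1, ERCC2, ERCC3 and ERCC4), against 59.9% of all genes, 31.0% higher and 28.9% lower. In A2780 the median log2 FC of the 10 was 0.27, where that of all genes was 0.02, and in A2780cis the medians were -0.05 and 0.04. The count in A2780 was 5 without A2780 untreated 12 h replicate 3 or without A2780 treated 12 h replicate 1. Scaling by library size alone raised the median of all genes to 0.24 in A2780 and to 0.15 in A2780cis at 12 h, and the split of the 10 genes became 6 higher and 1 lower in A2780 and 5 higher and 3 lower in A2780cis. Over all genes in A2780 that scaling gave 39.9% higher and 16.5% lower. VIM was lower in treated than in untreated cells at 12 h, 815 to 935 against 2276 to 2540 CPM in A2780 and 788 to 889 against 2243 to 2414 CPM in A2780cis, and its part in the results at 12 h was not tested.

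DDB2, the damage sensor whose promoter sequence is given with its p53 decamers, rose most. In A2780 it measured 31.5, 32.7 and 39.5 CPM untreated and 76.2, 79.9 and 82.7 CPM treated at 6 h, and 42.2, 40.5 and 42.7 CPM untreated and 123, 121 and 114 CPM treated at 12 h. In A2780cis the values were 32.5, 24.8 and 36.8 against 64.7, 74.4 and 69.0 CPM at 6 h, and 36.0, 31.5 and 30.3 against 87.0, 83.0 and 103 CPM at 12 h. Treated and untreated libraries were far apart in all 4 comparisons. The increase was 2.31-fold in A2780 (log2 FC 1.21 ± 0.12, adjusted p = 2.53e-08) and 2.21-fold in A2780cis (log2 FC 1.14 ± 0.12, adjusted p = 5.79e-08) at 6 h. At 12 h it was 2.84-fold in A2780 (log2 FC 1.51 ± 0.11, adjusted p = 3.16e-11) and 2.79-fold in A2780cis (log2 FC 1.48 ± 0.11, adjusted p = 3.82e-11). The difference between the lines in this response was -0.06 at 6 h, with a 95% interval from -0.40 to 0.27, and -0.03 at 12 h, with an interval from -0.36 to 0.30.

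XPC, the partner of DDB2 in lesion recognition, rose in A2780 from 41.6, 46.3 and 45.8 to 70.7, 71.4 and 67.8 CPM at 6 h and from 52.1, 60.3 and 59.97 to 114, 119 and 115 CPM at 12 h. In A2780cis it rose from 40.0, 44.8 and 36.6 to 51.7, 61.3 and 63.6 CPM at 6 h and from 45.2, 50.02 and 53.2 to 82.0, 92.6 and 85.5 CPM at 12 h. The groups did not overlap in any of these comparisons. The log2 FC at 6 h was 0.65 ± 0.10 in A2780 (adjusted p = 1.44e-05) and 0.54 ± 0.10 in A2780cis (adjusted p = 1.22e-04). At 12 h it was 1.01 ± 0.09 in A2780 (2.01-fold, adjusted p = 1.35e-09) and 0.81 ± 0.09 in A2780cis (1.75-fold, adjusted p = 4.56e-08). XPC shares 24.6% of its exon length with XPC-AS1 on the opposite strand, and the strand setting of the counting was not found. XPC-AS1 also rose, its log2 FC at 12 h being 1.07 (A2780) and 0.94 (A2780cis) (adjusted p = 3.08e-09 and 2.30e-08), and reads of a gene and its antisense partner cannot be told apart.

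DDB1, the partner of DDB2 in the damage-binding complex and an adaptor of CUL4 ubiquitin ligases, moved the other way. At 12 h it fell in A2780 from 413, 428 and 452 to 302, 306 and 297 CPM and in A2780cis from 399.97, 419 and 423 to 309.9, 303 and 316 CPM. All treated libraries were below all untreated ones of their line. The log2 FC was -0.52 ± 0.09 in A2780 (0.700 of the untreated level, adjusted p = 2.05e-05) and -0.42 ± 0.09 in A2780cis (0.748 of the untreated level, adjusted p = 2.05e-04). At 6 h the groups overlapped, with log2 FC of 0.10 ± 0.09 (adjusted p = 0.429) and -0.05 ± 0.09 (adjusted p = 0.727).

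ERCC6, the lowest of the 10 genes per kilobase of exon in untreated cells at 12 h, rose in all 4 comparisons. In A2780 it went from 12.8, 13.5 and 13.1 to 17.7, 17.8 and 18.2 CPM at 6 h and from 12.9, 14.01 and 12.2 to 20.7, 19.2 and 19.6 CPM at 12 h. In A2780cis it went from 9.80, 12.0 and 10.8 to 17.5, 12.6 and 15.4 CPM at 6 h and from 7.46, 8.31 and 7.61 to 11.3, 12.6 and 10.7 CPM at 12 h. The treated libraries were above the untreated ones throughout, by the smallest margin in A2780cis at 6 h. The log2 FC was 0.45 ± 0.11 in A2780 (adjusted p = 0.00457) and 0.48 ± 0.12 in A2780cis (adjusted p = 0.00268) at 6 h, and 0.61 ± 0.11 (adjusted p = 4.01e-05) and 0.57 ± 0.12 (adjusted p = 1.63e-04) at 12 h. As A2780cis started lower at 12 h, 2 of its 3 treated libraries stayed below every untreated A2780 library.

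The TFIIH helicases did not pass at 6 h and were lower at 12 h, except that the direction of ERCC3 in A2780 depended on the scaling. ERCC2 at 12 h measured 54.7, 55.2 and 59.5 CPM in untreated and 39.0, 47.7 and 46.3 CPM in treated A2780 (log2 FC -0.35 ± 0.13, adjusted p = 0.0274). In A2780cis it measured 106, 127 and 138 CPM untreated and 80.7, 108 and 106 CPM treated, with overlap (log2 FC -0.33 ± 0.13, adjusted p = 0.0287). The treated mean in A2780 was 44.3 CPM at 6 h and at 12 h, while the untreated mean rose from 38.1 to 56.5 CPM. In A2780cis the treated mean went from 92.9 to 98.3 CPM and the untreated mean from 81.8 to 123.5 CPM. With library size alone ERCC2 passed in neither line at 12 h (log2 FC -0.12 and -0.22). The call in A2780 was also lost without untreated 12 h replicate 3 or treated 12 h replicate 1 (adjusted p = 0.0814 and 0.108). That in A2780cis was lost with the compared libraries alone (adjusted p = 0.0568) and without untreated 12 h replicate 2, untreated 12 h replicate 3 or treated 12 h replicate 1 (adjusted p = 0.0692, 0.132 and 0.137). ERCC3 in A2780cis fell from 98.1, 104 and 105 to 74.1, 73.1 and 78.5 CPM (log2 FC -0.45 ± 0.07, adjusted p = 2.65e-06). In A2780 its log2 FC was -0.16 ± 0.07 (adjusted p = 0.0375), which turned to 0.06 with library size alone and lost the call without any 1 of 5 of the 6 libraries.

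XPA rose at 12 h in both lines, from 11.4, 12.4 and 9.87 to 18.5, 14.02 and 14.8 CPM in A2780 (log2 FC 0.48 ± 0.13, adjusted p = 0.00294) and from 12.7, 12.6 and 12.1 to 18.7, 15.3 and 18.3 CPM in A2780cis (log2 FC 0.48 ± 0.13, adjusted p = 0.00253). The groups did not overlap in either line. At 6 h the log2 FC of XPA was 0.02 ± 0.14 and -0.19 ± 0.13, and neither passed. In A2780cis the untreated mean went from 17.1 CPM at 6 h to 12.5 CPM at 12 h, where the treated mean was 17.4 CPM. In A2780 the untreated mean went from 13.5 to 11.2 CPM, and the treated mean at 12 h was 15.8 CPM.

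**Figure D3:**
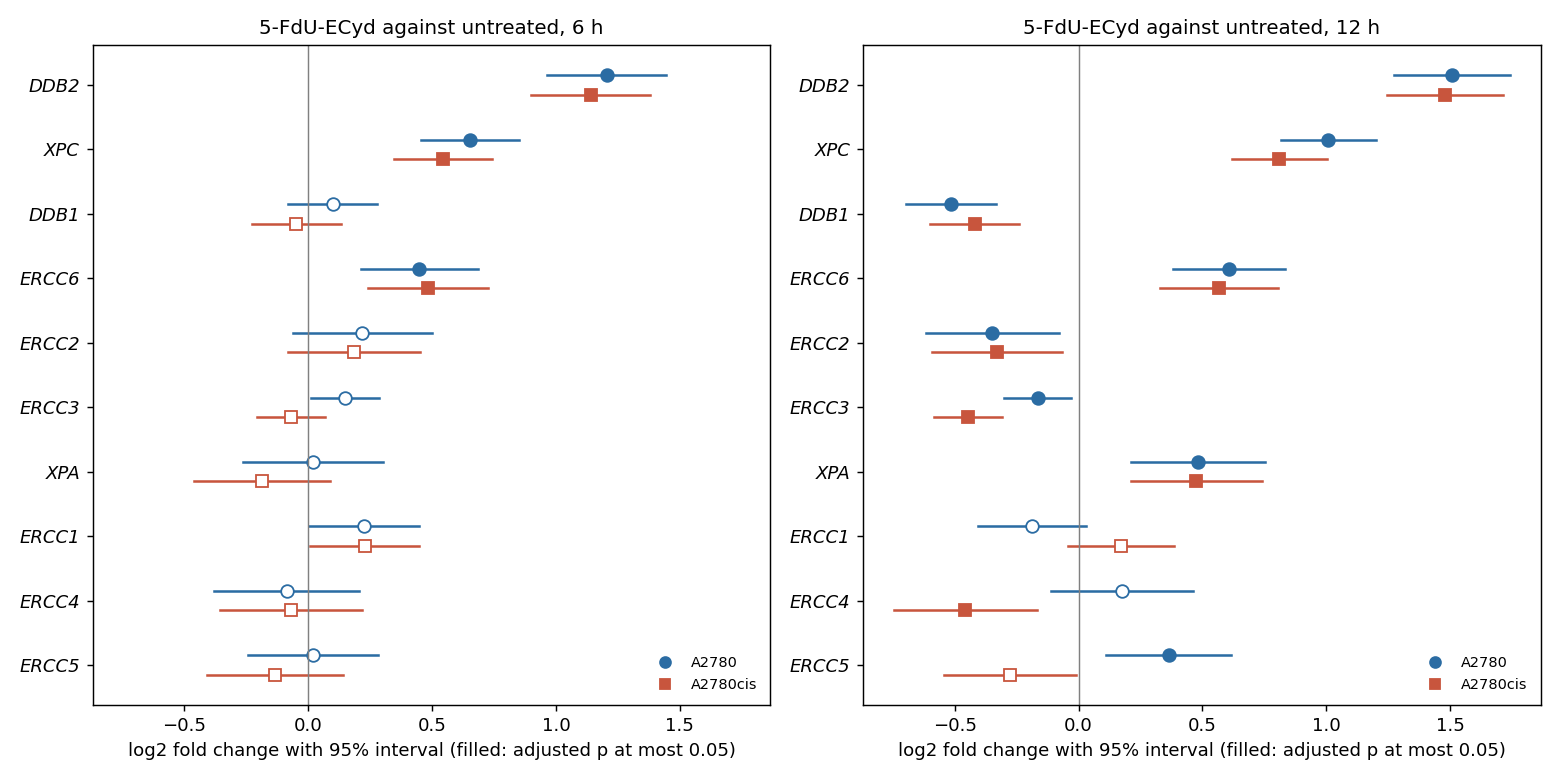
Log2 FC of treated against untreated cells at 6 h (left) and 12 h (right) for A2780 (circles) and A2780cis (squares), with 95% intervals (3 libraries per group); filled symbols have an adjusted p of at most 0.05. DDB2, XPC and ERCC6 are right of 0 in both lines at both times, and at 12 h the lines part at ERCC4 (0.18 and -0.46) and ERCC5 (0.36 and -0.28).

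Of the nuclease genes, ERCC4 passed at 12 h in A2780cis and ERCC5 in A2780. ERCC4 in A2780 measured 28.4, 26.6 and 29.2 CPM untreated and 35.0, 28.6 and 31.7 CPM treated, with overlap (log2 FC 0.18 ± 0.14, adjusted p = 0.2998). In A2780cis it fell from 38.6, 36.2 and 31.5 to 30.5, 28.0 and 18.9 CPM (log2 FC -0.46 ± 0.14, adjusted p = 0.00674). ERCC5 in A2780 rose from 33.1, 30.9 and 23.0 to 41.5, 34.2 and 36.1 CPM (log2 FC 0.36 ± 0.12, adjusted p = 0.0139), a call that was lost without A2780 untreated 12 h replicate 3 or A2780 treated 12 h replicate 1. In A2780cis ERCC5 measured 21.0, 16.9 and 17.0 CPM untreated and 15.2, 14.1 and 16.0 CPM treated and missed the threshold (log2 FC -0.28 ± 0.13, adjusted p = 0.0663). ERCC1 passed in neither line, with log2 FC of -0.19 ± 0.11 in A2780 (adjusted p = 0.137) and 0.17 ± 0.10 in A2780cis (adjusted p = 0.162).

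The difference between the lines was tested as an interaction of line and treatment. At 6 h, edgeR's quasi-likelihood test called 0 of the 10 genes, against 3.07% of all genes, 1 of them (ERCC3) had an unadjusted p under 0.05, and the Wald test of DESeq2 called 0. At 12 h it called 3 of 10, all with a lower response in A2780cis, against 23.7% of all genes. Calls over all genes also leaned that way, with 9.70% higher and 13.96% lower in A2780cis. The 3 genes were ERCC5 (log2 difference -0.64 ± 0.18, adjusted p = 0.0106), ERCC4 (-0.63 ± 0.20, adjusted p = 0.0220) and ERCC3 (-0.28 ± 0.09, adjusted p = 0.0307). With the counts of ERCC5 and BIVM-ERCC5 summed, the difference for ERCC5 was -0.57 (adjusted p = 0.0117), which is no check on read sharing either. The count was 1 without A2780 untreated 12 h replicate 2 or A2780 treated 12 h replicate 1. Under library size alone, the median interaction of all genes moved from -0.04 to -0.16. ERCC4 also shares 14.1% of its exon length with a long noncoding RNA gene on the opposite strand (ENSG00000262732), which in A2780cis at 12 h fell by 0.61 on the log2 scale (adjusted p = 0.00348).

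Whether the response grew with time was tested as the 12 h log2 FC minus the 6 h log2 FC. In A2780, 4 of 10 genes passed, against 23.7% of all genes, and each had the lower value at 12 h: DDB1 (-0.61 ± 0.12, adjusted p = 9.52e-04), ERCC3 (-0.31 ± 0.09, adjusted p = 0.0173), ERCC2 (-0.57 ± 0.19, adjusted p = 0.0317) and ERCC1 (-0.41 ± 0.15, adjusted p = 0.0490). In A2780cis, 4 of 10 passed, against 24% of all genes, 10.3% higher and 13.6% lower. ERCC3 (-0.38 ± 0.09, adjusted p = 0.00499), DDB1 (-0.37 ± 0.12, adjusted p = 0.0308) and ERCC2 (-0.51 ± 0.18, adjusted p = 0.0411) had the lower value at 12 h, and XPA (0.66 ± 0.19, adjusted p = 0.0108) the higher. With library size alone the split in A2780 was 4 higher and 1 lower, as the median of all genes moved from -0.02 to 0.13. With the size factors of DESeq2 it was 1 higher and 3 lower. The 12 h log2 FC of DDB2 exceeded that at 6 h by 0.30 ± 0.16 in A2780 and 0.34 ± 0.16 in A2780cis, which did not pass (adjusted p = 0.180 and 0.133), and that of XPC by 0.36 ± 0.13 in A2780 (adjusted p = 0.0522). The counts rest on few libraries. In A2780 the count was 1 without A2780 untreated 6 h replicate 1 and 2 without any 1 of A2780 untreated 6 h replicate 2, treated 6 h replicate 1, untreated 12 h replicate 3 or treated 12 h replicate 1. In A2780cis it was 2 without any 1 of A2780cis untreated 6 h replicate 3, treated 6 h replicate 3, untreated 12 h replicate 2 or untreated 12 h replicate 3.

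The rest of the pathway was read from a list of 42 further excision repair genes, all of which passed the filter on low counts. At 12 h of treatment, 23 of 42 passed in A2780 (54.8% of the list and 54.8% of all genes), 7 higher and 16 lower. In A2780cis 30 of 42 passed (71.4% of the list and 59.9% of all genes), 11 higher and 19 lower. With library size alone the balance in A2780 turned, to 16 higher and 11 lower. At 6 h, 21 passed in A2780 (11 higher, 10 lower), beside 29.4% of all genes, and 20 in A2780cis (6 higher, 14 lower, or 8 and 10 with library size alone), beside 30.7% of all genes. The 6 h counts depend on single libraries: 12 without A2780 untreated 6 h replicate 1, 13 without A2780 treated 6 h replicate 1, 13 without A2780cis untreated or treated 6 h replicate 2, and 7 without A2780cis treated 6 h replicate 3. In A2780 the median log2 FC of the list was -0.07 at 6 h and -0.14 at 12 h, and in A2780cis it was -0.09 and -0.19. The medians of all genes were 0.04 and 0.02 in A2780 and 0.00 and 0.04 in A2780cis.

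Among 6 damage recognition partners, CUL4A, the scaffold of the ligase that DDB1 and DDB2 join, fell at 12 h by 0.78 on the log2 scale in A2780 and by 0.93 in A2780cis. RAD23B, which stabilises XPC, fell by 0.70 and by 1.11. In the transcription-coupled group of 7, UVSSA had the largest decrease, from 16.0, 18.4 and 16.8 to 2.94, 6.30 and 5.54 CPM in A2780 (log2 FC -1.76 ± 0.23, adjusted p = 3.79e-07) and from 14.2, 19.2 and 19.8 to 2.67, 5.51 and 2.80 CPM in A2780cis (log2 FC -2.26 ± 0.24, adjusted p = 9.94e-09). No treated library reached an untreated one. UVSSA was already lower at 6 h, with log2 FC of -1.75 ± 0.26 and -2.02 ± 0.26. USP7, the deubiquitinase that works with UVSSA to keep ERCC6 stable, fell at 12 h by 1.01 on the log2 scale in A2780 and by 1.41 in A2780cis, whereas the transcript of ERCC6 itself rose.

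In TFIIH and its kinase module, 5 of 8 genes were lower and 0 higher in A2780 at 12 h, where 26.1% of all genes were lower, and 4 were lower and 1 higher in A2780cis, where 28.9% of all genes were lower. With library size alone, the whole list of 42 in A2780 had 16 genes higher and 11 lower. The kinase CDK7 fell by 1.05 on the log2 scale in A2780 and by 1.24 in A2780cis at 12 h, and the core subunit GTF2H2 by 0.58 and by 0.50. CDK7 and its cyclin CCNH were already lower at 6 h, with log2 FC of -0.57 and -0.68 in A2780 and -0.57 and -0.36 in A2780cis. Of the 3 subunits of replication protein A, the single-strand binding complex, RPA3 rose and RPA1 fell in A2780cis at 12 h (log2 FC 0.73 ± 0.14 and -0.21 ± 0.08), and none passed in A2780. RPA3 is the smallest subunit of the complex.

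In gap filling and ligation, 7 of 18 genes were higher and 4 lower in A2780 at 12 h, and 6 were higher and 6 lower in A2780cis, where 28.6% and 31.0% of all genes were higher. PCNA, the sliding clamp of the repair polymerases and a known p53 target, rose in A2780 from 210.5, 201 and 184 to 563, 473 and 471 CPM (log2 FC 1.34 ± 0.10, adjusted p = 3.91e-11). It had already risen at 6 h, with log2 FC of 1.01 ± 0.10 (A2780) and 0.66 ± 0.10 (A2780cis). POLD4, the small subunit of polymerase delta, rose in A2780cis from 8.86, 8.53 and 8.58 to 29.2, 28.8 and 37.8 CPM (log2 FC 1.88 ± 0.18, adjusted p = 2.79e-09). Of the ligases in A2780, LIG1 rose at 6 h and 12 h (log2 FC 0.77 ± 0.13 and 0.49 ± 0.12), and LIG3 fell at both (log2 FC -0.38 ± 0.12 and -0.81 ± 0.12). RFC1, the large subunit of the clamp loader, fell in A2780cis by 0.40 on the log2 scale at 6 h and by 1.00 at 12 h. Values given for 1 line do not mark a response particular to it. At 12 h PCNA and LIG3 also passed in A2780cis, and LIG1 did not. In A2780 at 12 h, POLD4 and RFC1 also passed the adjusted threshold in edgeR's quasi-likelihood test.

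**Figure D4:**
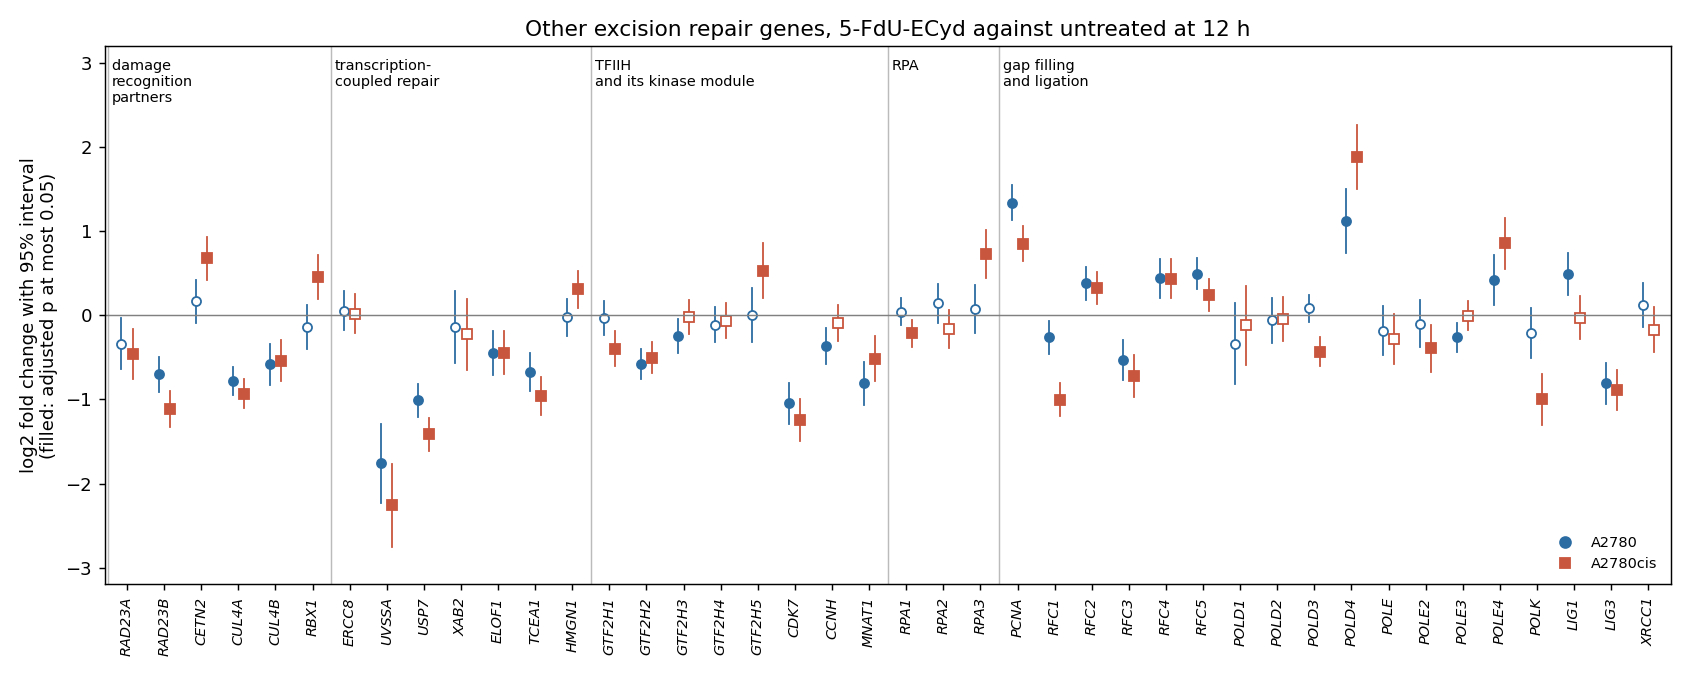
Log2 FC of treated against untreated cells at 12 h for 42 other excision repair genes in A2780 (circles) and A2780cis (squares), with 95% intervals (3 libraries per group), grouped by role; filled symbols have an adjusted p of at most 0.05. UVSSA is lowest (-1.76 and -2.26), and PCNA (1.34 in A2780) and POLD4 (1.88 in A2780cis) are among the highest.

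Between the untreated lines, 20 of the 42 genes passed at 6 h (7 higher and 13 lower in A2780cis) and 22 at 12 h (8 higher and 14 lower). These are 47.6% and 52.4% of the list, near the 47.9% and 52.9% of all genes. MNAT1, which assembles the kinase module with CDK7 and CCNH, was lower in A2780cis, with 34.5, 30.8 and 41.1 CPM against 90.5, 94.4 and 84.0 CPM in A2780 at 6 h (log2 FC -1.34 ± 0.13, adjusted p = 1.75e-09) and a log2 FC of -1.47 ± 0.13 at 12 h. ERCC2, with which MNAT1 makes contact in TFIIH, was higher in the same cells. GTF2H4, another subunit, was higher at 6 h (log2 FC 0.58 ± 0.11) and GTF2H2 lower at 12 h (log2 FC -0.47 ± 0.09). CUL4A was lower by 0.87 on the log2 scale at 6 h and by 0.99 at 12 h, and RBX1, the RING subunit of the same ligase, was lower at 12 h (log2 FC -0.44 ± 0.13). TCEA1, an elongation factor that rescues stalled polymerase, was higher (log2 FC 0.89 ± 0.11 and 0.69 ± 0.11), as was ERCC8, which acts beside ERCC6, at 6 h (log2 FC 0.50 ± 0.12). CETN2, a subunit of the XPC complex, was higher at 6 h (log2 FC 0.55 ± 0.13), and HMGN1 was lower at 12 h (log2 FC -0.50 ± 0.11). Values given for 1 time do not mark a difference particular to it. GTF2H4, GTF2H2, CETN2 and HMGN1 passed at both times. RBX1 at 6 h and ERCC8 at 12 h had an unadjusted p under 0.05 in edgeR's quasi-likelihood test. RPA3 was lower (log2 FC -0.55 ± 0.14 and -0.85 ± 0.14), and so were RFC3, a clamp loader subunit (-1.22 ± 0.12 and -1.27 ± 0.12), and POLD3, a subunit of polymerase delta (-0.78 ± 0.08 and -0.97 ± 0.08).

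Exons of several of the 10 genes overlap those of neighbours. POLR1G shares 28.6% of the exon length of ERCC1 on the opposite strand and fell at 12 h by 0.62 on the log2 scale in A2780 and by 0.54 in A2780cis, while ERCC1 did not pass. KLC3 shares 7.71% of that of ERCC2 and, like ERCC2, was higher in untreated A2780cis (log2 FC 1.16 at 6 h and 1.38 at 12 h), at 3.73 to 17.6 CPM over all libraries. TKFC shares 3.18% of that of DDB1, and at 12 h of treatment it rose in A2780cis (log2 FC 0.67) while DDB1 fell. A second partner of XPC on the opposite strand, ENSG00000268279, shares 8.91% of its exon length and, like XPC, rose with treatment in both lines at 6 h (log2 FC 0.57 in A2780 and 0.56 in A2780cis) and at 12 h (log2 FC 0.64 and 0.44). The partner of ERCC6, which shares 0.870%, did not pass the filter on low counts. How far shared reads move the values of these genes was not tested.

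As a description of likeness, the protein-coding gene with the highest Pearson correlation of log2 CPM over the 24 libraries was sought for each of the 10 genes among 13871 candidates. These were GDF15 for DDB2 (r = 0.9701), TMEM63B for XPC (r = 0.987), MYH10 for DDB1 (r = 0.939), MCL1 for ERCC6 (r = 0.940), LARGE2 for ERCC2 (r = 0.984) and BRD2 for ERCC3 (r = 0.928). For the others they were ZNF354A for XPA (r = 0.889), ADAM15 for ERCC1 (r = 0.965), EDEM3 for ERCC4 (r = 0.936) and, for ERCC5, BIVM-ERCC5 (r = 0.981), with which it shares reads. The 24 points share line, treatment and time of harvest, and nothing on shared function is read from them.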

How the data were processed

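Total RNA from 24 cultures was sequenced by the authors. Per the study's methods and the labels, reads were trimmed with Trimmomatic, aligned to GRCh38.p7 with STAR 2.5.2b and assigned to gene exons with featureCounts, with multi-mapping reads counted in fractions and reads allowed to count for overlapping genes. The deposited values are therefore estimated counts (expected counts) per gene, of which 9.50% to 12.8% per library were not whole, and they were rounded. The strand setting of the counting was not given in the sources used here, and the sources differ on single or paired reads. All columns of the table were mapped to a sample.

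Genes were filtered with filterByExpr (minimum count 10, minimum total 15), scaled by TMM and fitted with the quasi-likelihood test of edgeR 4.0.16 in R 4.3.3 over all 24 libraries, each group having its own coefficient, which left 16 residual degrees of freedom. P-values were two-sided and adjusted by Benjamini-Hochberg over the 20240 genes tested, with a threshold of 0.05. The SE was taken from the size of the log2 FC and the root of its F statistic. DESeq2 1.42.0 (Wald test) was an alternative, as were the size factors of DESeq2, library size alone, no filter (41286 genes), the compared libraries alone, a replicate block and leaving out each library. The fit was tested on simulated data. Gene positions and exon lengths came from GENCODE 44, matched by identifier for 56948 of 63299 genes, and promoter sequences from RefSeq. Tables and figures used Python 3.11.15, pandas 2.3.3 and matplotlib 3.10.9. No 2 replicate libraries agreed within sampling noise.

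The members and lists were chosen with earlier results of these data known. In each comparison the text names those of the 10 genes that passed, and only some of those that did not. From each role of the list of 42 it names at most the 2 genes with the smallest adjusted p in the comparisons of treatments and of untreated lines. LIG1 at 12 h and LIG3 at 6 h in A2780 were added beside their values at the other time. The most correlated protein-coding gene per member is named too. Genes sharing exon length with a member were named after their values were seen.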

Additional observations from a re-analysis of the deposited data

Results flagged for a closer look

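Of the 10 genes, 3 had a treatment response at 12 h that differed between the lines by the interaction test: ERCC5 by -0.64, ERCC4 by -0.63 and ERCC3 by -0.28 (log2, A2780cis minus A2780). Responses that differed between the times, as the 12 h log2 FC minus that at 6 h, were -0.61 for DDB1, -0.57 for ERCC2, -0.41 for ERCC1 and -0.31 for ERCC3 in A2780. In A2780cis they were 0.66 for XPA, -0.51 for ERCC2, -0.38 for ERCC3 and -0.37 for DDB1. Each passed the adjusted threshold of 0.05 in the quasi-likelihood test of edgeR, but many were lost in alternatives. Of 19 alternatives, the difference between times passed in 4 for ERCC1, 13 for ERCC2, 16 for ERCC3 and 19 for DDB1 in A2780. In A2780cis it passed in 11 for ERCC2, 14 for DDB1, 19 for ERCC3 and 19 for XPA. For ERCC1 the value ranged from -0.53 to -0.26 and the adjusted p reached 0.287. The interaction call of ERCC5 passed in all 20 of its alternatives, which include the sum with BIVM-ERCC5. That of ERCC3 was lost in 10 and that of ERCC4 in 5, among them the removal of A2780cis treated 12 h replicate 3 (-0.46).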

How the results depend on the processing

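Groups of 3 libraries from 1 line per phenotype limit every comparison. Of 50 called results of single genes, 29 kept their call and direction in all alternatives run, and 1 changed direction: ERCC3 in treated A2780 at 12 h, which was 0.058 with library size alone. The median log2 FC of all genes in that comparison went from 0.02 to 0.24 with library size alone. The cause was not tested. DDB2, XPC and ERCC6 kept their increase in both lines at both times in every alternative, with log2 FC of 1.00 to 1.73 for DDB2, and ERCC2 between the untreated lines stayed between 1.00 and 1.26.

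Signs of differences that had not passed also turned. With library size alone the values became 0.024, 0.029 and 0.047 for ERCC4, ERCC3 and DDB1 in treated A2780cis at 6 h, 0.036 for ERCC1 in treated A2780 at 12 h, -0.096 and -0.020 for the 12 h interaction of ERCC2 and DDB1, 0.057 for ERCC6 between times in untreated A2780 and 0.047 for ERCC3 in untreated A2780cis. The size factors of DESeq2 gave -0.020 for ERCC5 and -0.022 for XPA, and its Wald test -0.018 and -0.019, in treated A2780 at 6 h. With no filter, the 12 h interaction of ERCC2 was -0.0089 and ERCC6 between times in untreated A2780 was 0.018. The compared libraries alone gave 0.025 for the 6 h interaction of ERCC2 and 0.016, 0.052 and 0.030 for the 12 h interaction of ERCC6, XPA and DDB2. With ERCC5 and BIVM-ERCC5 summed, ERCC5 was 0.026 for the growth of the response and -0.017 between times in A2780cis.

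The count of the 10 genes was 2 for the untreated lines at 6 h with the compared libraries alone, and 2 for the growth of the response in A2780 with no filter. That of the 42 genes between times in untreated A2780cis was 17 with library size alone.

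Leaving out 1 library at a time gave counts of the 10 genes from 2 to 4 (untreated lines, 6 h), 3 to 5 and 5 to 8 (treated A2780, 6 h and 12 h), 1 to 3 (interaction, 12 h), 1 to 5 and 2 to 4 (growth in A2780 and A2780cis) and 1 to 5 (times, untreated A2780). Counts of the 42 genes ran from 12 to 20 and 7 to 20 (treated A2780 and A2780cis, 6 h), 5 to 14 (interaction, 12 h), 5 to 10 and 11 to 21 (growth), and 6 to 17 and 15 to 28 (times). Single genes whose sign turned ranged from -0.27 to 0.0077 (DDB2, lines, 6 h), from -0.019 to 0.049 and -0.12 to 0.10 (ERCC5 and XPA, treated A2780, 6 h) and from -0.12 to 0.042 (DDB1, treated A2780cis, 6 h). In the 6 h interaction they ranged from -0.11 to 0.12 (ERCC1), -0.092 to 0.12 (ERCC4), -0.19 to 0.079 (ERCC2), -0.074 to 0.15 (ERCC6) and -0.21 to 0.068 (DDB2). At 12 h the interaction ranged from -0.084 to 0.13 (ERCC2), -0.11 to 0.011 (ERCC6), -0.090 to 0.14 (XPA) and -0.14 to 0.046 (DDB2). Growth in A2780cis ranged from -0.17 to 0.024 (ERCC1) and -0.036 to 0.18 (ERCC6). Between times they ranged from -0.062 to 0.195 (ERCC5) and -0.069 to 0.035 (ERCC6) in A2780, and from -0.046 to 0.18 (ERCC5), -0.031 to 0.13 (DDB1) and -0.088 to 0.19 (DDB2) in A2780cis.

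Pairing of the samples by replicate number was not shown. Deviations of same-numbered libraries from their group means correlated between -0.254 and 0.312, and with 3 libraries per group this cannot exclude pairing. The replicate block gave 4 and 6 of the 10 genes for the untreated lines at 6 h and 12 h and 3, 3, 8 and 8 for the treatment comparisons, and turned the 6 h interaction of ERCC1 to -0.0092. With the block XPC also passed for the untreated lines at 12 h (adjusted p = 0.0298) and for the growth of the response in A2780 (adjusted p = 0.0265), and no other call among the 10 genes changed.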
